A study of Mus musculus with 6 samples.

Results

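The bone morphogenetic protein (BMP) transcripts described here are the 4 ligands Bmp2, Bmp4, Bmp6 and Bmp7, the receptor Bmpr1a and the SMAD readouts Id1, Id2, Id3, Id4 and Smad6. These 10 genes were picked by symbol from a table of 23337 mouse genes, and all 10 were found in it. They were proposed with knockout against wild-type results of these libraries in view, so their genotype differences are given as a description with no test.

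The RNA came from basal cell carcinoma cells in the ear epidermis of mice. All mice carried R26-SmoM2/+, which makes a constantly active Smoothened, and K14CreER, a tamoxifen-activated Cre driven by the keratin 14 promoter of basal keratinocytes. Tamoxifen was given at 4 weeks of age and each library is labelled as taken 6 weeks later. The 3 wild-type libraries had unmodified Yap alleles (R26-SmoM2/+ K14CreER), and the 3 knockout libraries also carried Yapfl/fl, the floxed alleles of the Hippo pathway co-activator YAP. Recombination is limited to cells in which the driver acted, so cells without it keep their Yap. Values are normalized counts, which are reads divided by a size factor for each library, at 15405490 to 25260431 reads per library.

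BMP ligands are secreted dimers that bind type I receptors such as BMPR1A together with type II receptors. The receptors phosphorylate SMAD1, SMAD5 and SMAD9, which join SMAD4 in the nucleus and switch on target genes. The ID genes are such targets, and their helix-loop-helix proteins have no DNA-binding region and hold E proteins away from DNA. Smad6 is also induced by the pathway and inhibits it. In skin, BMP signals through Bmpr1a are known for their part in hair follicle differentiation and in keeping hair follicle stem cells quiescent.

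Yap1, the targeted gene, stood at 5765, 6004 and 5573 normalized counts in the wild-type libraries, in the order of their numbers, and at 591, 773 and 1764 in the knockout libraries. Libraries 1 and 2 of each genotype carry label codes that begin with DM22, and library 3 of each carries a code that begins with DM24. What the codes stand for is not given in the sources used here. The DM24 libraries were the shallower ones (15405490 and 15572640 reads), and they held Xist, the X-inactivation transcript, at 59594 and 58654 normalized counts against 8.62 to 15.1 in the DM22 libraries. Code series, depth and sex therefore cannot be told apart. Among the knockout libraries the remaining Yap1 (1764 in DM24 against 591 and 773 in DM22) goes with the same split. The labelled cell type had its markers in each library. Krt5 lay at 223225 to 347189 and the Hedgehog target Gli1 at 13954 to 19838 normalized counts. The summed counts of 7 endothelial markers were only 122 to 181 and the marker Emcn had 0 reads in every library, which allows up to 2.47 to 3.90 normalized counts.

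Among the 10 transcripts Id3, Id1, Bmp7 and Bmpr1a had the highest levels and Smad6 the lowest. Per kilobase of annotated exon, Id3 had 2195 ± 926 normalized counts (SD, n = 6 libraries) and Id1 had 1498 ± 391 (SD, n = 6). The ligand Bmp7 followed at 679 ± 92.9 (SD, n = 6) and the receptor Bmpr1a at 677 ± 48.7 (SD, n = 6). Id2 stood at 432 ± 228 (SD, n = 6). Bmp2, Bmp6, Id4 and Bmp4 had per-kilobase means of 163, 156, 148 and 96.0, with SDs of 125, 80.3, 27.4 and 82.7. Smad6 was lowest at 59.9 ± 9.30 (SD, n = 6). Id1 (970 to 2057) lay above Bmp7 (533 to 775) in every library, and all other neighbours in this order had overlapping ranges over the libraries. The E proteins that ID proteins bind are known from Tcf3, Tcf4 and Tcf12. Their summed level per kilobase was 1708 to 2132 in the 6 libraries, while the summed ID level ran from 2081 to 6192. This order depends on the length used. All annotated exons were joined, which gave 27382 bases for Tcf4 and 15529 for Tcf12 against 1160 for Id1. Without division by length, Tcf3 had 5245 to 6325 and Tcf12 5266 to 7743 normalized counts. Id3, the highest ID gene, had 1511 to 5770.

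**Figure D1:**
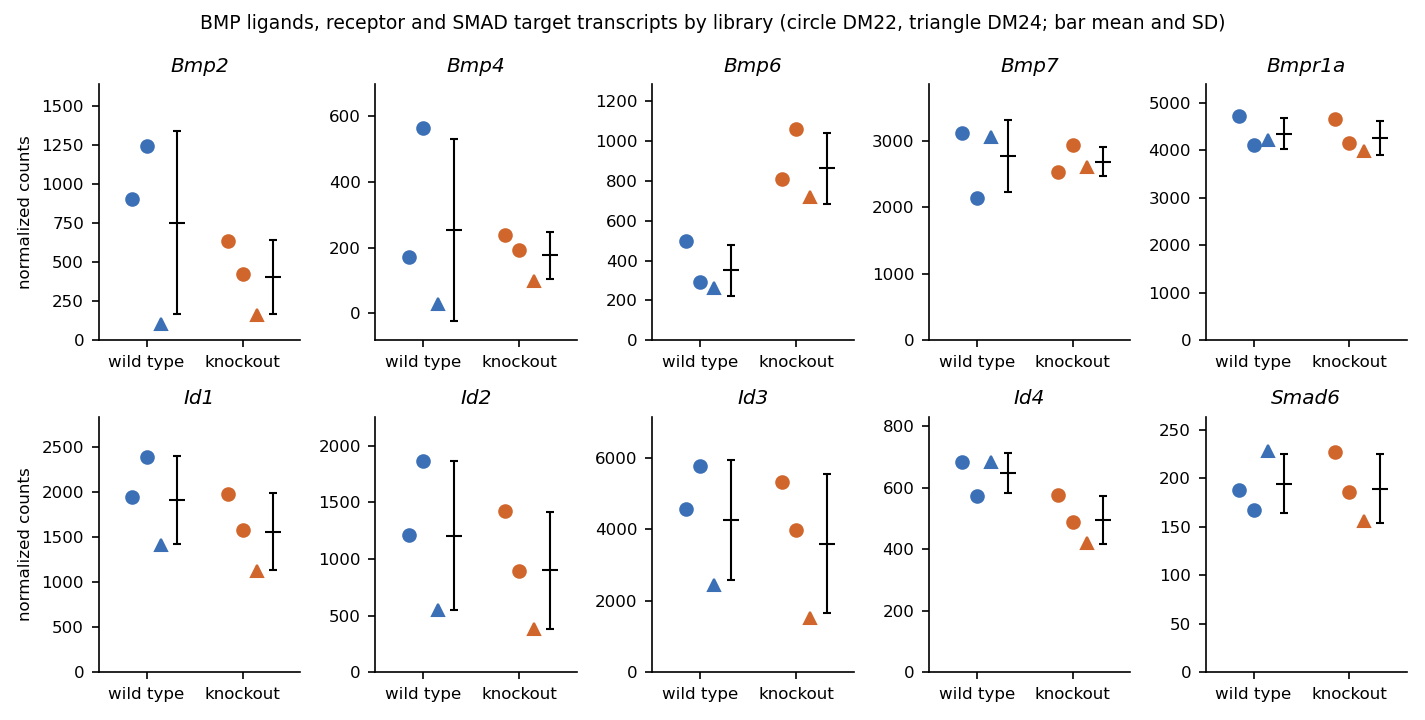
Each panel gives 1 transcript in normalized counts on a linear axis, with wild-type libraries in blue, knockout libraries in orange, DM22 libraries as circles, DM24 libraries as triangles, and the group mean with its SD as a black bar. Bmp6 is higher in each knockout library (719 to 1063) than in any wild-type library (263 to 498), while the triangles lie lowest in both genotypes for Bmp2, Bmp4, Bmp6, Id1, Id2 and Id3.

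Bmp6 was the ligand with separate groups. Its wild-type libraries had 498, 294 and 263 normalized counts and its knockout libraries 810, 1063 and 719. All knockout values lay above all wild-type values. The wild-type mean was 351 ± 128 and the knockout mean 864 ± 178 (SD, n = 3 each). Genotype differences are knockout minus wild type in log2(normalized count + 1). For Bmp6 this came to 1.33 with a standard error of 0.27, and to 0.70, 1.85 and 1.45 in the same-numbered pairs 1 to 3. Bmp6 lies on chromosome 13, 38345107 to 38500302, plus strand (GRCm38), and encodes a ligand that signals through the BMP type I receptors.

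Bmp2 and Bmp4, close relatives of each other and classical ligands of BMPR1A, varied widely and their groups overlapped. Bmp2 had 906, 1246 and 103 normalized counts in the wild-type tumours and 633, 424 and 161 in knockout. Library 3 was lowest in each genotype. Knockout minus wild type was −0.48 ± 1.02 (log2, SE), with −0.52 and −1.55 in the DM22 pairs and 0.64 in the DM24 pair. An interaction of genotype with code series, tested with limma across all 13671 genes, gave 1.67 ± 0.46 (SE) for Bmp2 with an adjusted p of 0.867, and limma called 0% of genes in it (748 at an unadjusted p under 0.05). DESeq2 called 0.263% of genes in the same interaction, and Bmp2 was not among them (DESeq2 adjusted p = 0.302). Both interaction tests rest on 1 DM24 library per genotype. Without wild-type library 2 the log2 difference of Bmp2 turned to 0.20, and it was also above 0 without knockout library 3 (0.084). It was −1.60 without wild-type library 3 and −1.04 in the DM22 libraries alone.

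Bmp4 had 171, 564 and 28.6 normalized counts in the wild-type tumours and 240, 192 and 99.9 in knockout. Wild-type library 2 held the highest and wild-type library 3 the lowest value, so the knockout range lay inside the wild-type range. The log2 difference of 0.24 ± 1.04 (SE) was smaller than the spread between libraries, and with DESeq2 on the recovered reads it had the other sign (−0.52). Bmp7, a ligand made by many epithelia, had 3114, 2142 and 3059 in wild type and 2533, 2931 and 2602 in knockout. The knockout values lay within the wild-type range, at −0.03 ± 0.16 (log2, SE) from wild type, and this sign turned without wild-type library 1 or 3 or knockout library 1.

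Of the 4 ligand transcripts only Bmp6 had a share of their sum that separated the genotypes, and the sum itself overlapped. The summed level per kilobase was 1233, 1210 and 870 in wild type and 1123, 1207 and 922 in knockout. Library 3 was lowest in both. Bmp6 made up 10.3%, 6.23% and 7.74% of that sum in wild type and 18.5%, 22.6% and 20.0% in knockout, so that the groups did not overlap. These shares use the Bmp6 counts already given, so their separation is no separate result. The knockout shares of Bmp7, Bmp2 and Bmp4 lay inside their wild-type ranges. Bmp7 was the leading ligand in each library at 44.1% to 87.5%. Bmp2 ranged from 3.32% in wild-type library 3 to 29.0% in wild-type library 2, and Bmp4 from 1.46% to 20.7% in the same libraries.

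**Figure D2:**
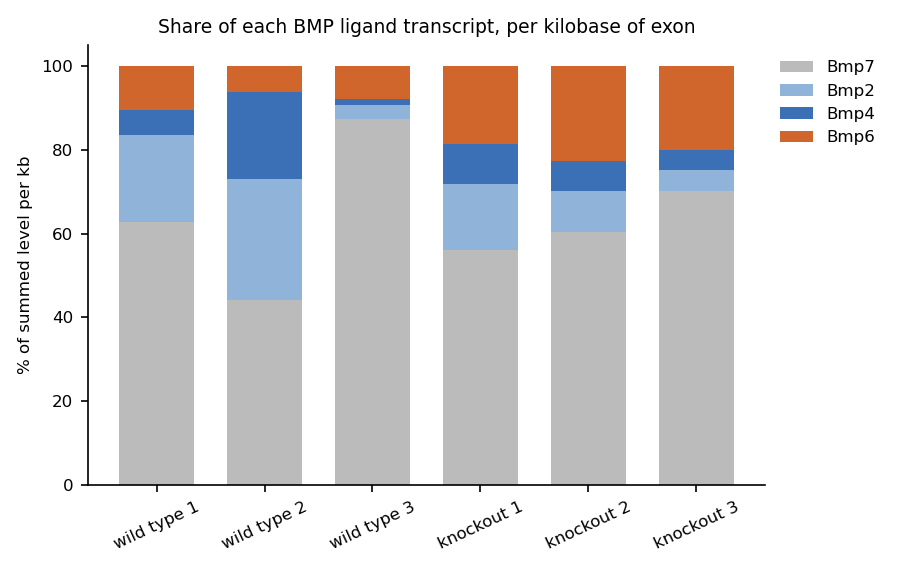
Stacked bars give the share of Bmp7, Bmp2, Bmp4 and Bmp6 in their summed level per kilobase of exon, in percent, for each of the 6 libraries. The orange Bmp6 part is 6.23% to 10.3% in the wild-type bars and 18.5% to 22.6% in the knockout bars, and the Bmp2 and Bmp4 parts are thinnest in library 3 of each genotype.

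Bmpr1a, the type I receptor for BMP2 and BMP4 in keratinocytes, was the steadiest of the 10 transcripts. It had 4721, 4107 and 4210 normalized counts in the wild-type tumours and 4655, 4147 and 3974 in knockout. The ranges overlapped almost completely, with a log2 difference of −0.03 ± 0.09 (SE) and pair differences of −0.02, 0.01 and −0.08. Its highest library had 1.19 times the counts of its lowest, against 12.1 times for Bmp2 and 19.7 times for Bmp4.

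Id1, Id2 and Id3 ranked the 6 libraries in the same order. Id1 had 1946, 2386 and 1409 normalized counts in the wild-type tumours and 1974, 1584 and 1125 in knockout. Id2, which like the others restrains E proteins, had 1211, 1864 and 548 in wild type and 1423, 892 and 386 in knockout. Id3 had 4556, 5770 and 2449 in wild type and 5315, 3985 and 1511 in knockout. For each of the 3 genes the libraries fell from wild-type 2 through knockout 1, wild-type 1, knockout 2 and wild-type 3 to knockout 3, so the genotypes overlapped. The log2 differences were −0.30 ± 0.27, −0.44 ± 0.61 and −0.34 ± 0.53 (SE), with pair 1 at 0.02, 0.23 and 0.22 and pairs 2 and 3 below 0. Without knockout library 3 the differences of Id2 and Id3 turned to 0.07 and 0.20.

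Id4 followed another order. It had 685, 573 and 684 normalized counts in the wild-type tumours and 577, 487 and 420 in knockout. Knockout library 1 exceeded wild-type library 2 by a few counts, so the groups just overlapped. Knockout minus wild type was −0.39 ± 0.14 (log2, SE), and each pair lay below 0, at −0.25, −0.23 and −0.70. Smad6, the inhibitory SMAD, had 188, 168 and 228 in wild type and 227, 185 and 156 in knockout. Its log2 difference of −0.05 ± 0.20 (SE) lay within the spread, and the pairs gave 0.27, 0.15 and −0.55.

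**Figure D3:**
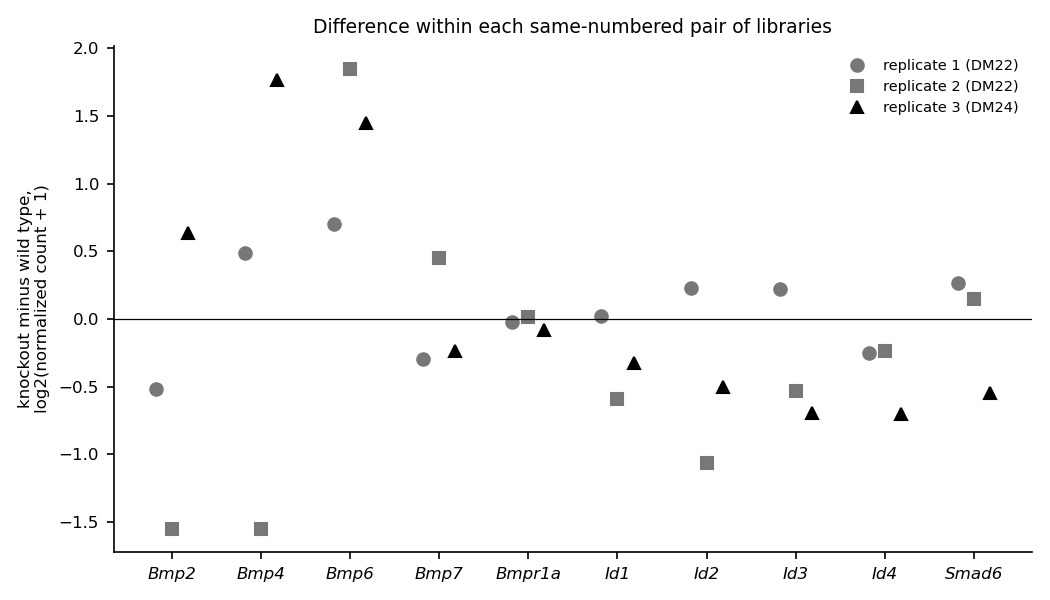
Points give the knockout minus wild-type difference in log2(normalized count + 1) for each same-numbered pair of libraries, with pairs 1 and 2 (DM22) in grey and pair 3 (DM24) in black. The 3 points lie above 0 for Bmp6 (0.70 to 1.85) and below 0 for Id4 (−0.70 to −0.23), and lie on both sides of 0 for the other 8 transcripts.

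Over all tested genes, 11.0% had groups that did not overlap between knockout and wild type, and of the 10 transcripts 1 had such groups (Bmp6). The 10 were proposed with this contrast known, so nothing is read from that count. Over the whole table limma called 0% of the 13671 tested genes at an adjusted p under 0.05, with 759 at an unadjusted p under 0.05, edgeR called 0 genes and DESeq2 called 0.490%. Limma and edgeR did not call the targeted gene Yap1 either (log2 −2.63, limma adjusted p = 0.517, edgeR adjusted p = 0.670). DESeq2 did call it (DESeq2 adjusted p = 1.4e-07). A lack of calls in limma or edgeR is therefore not evidence of no change. Knockout minus wild type was negative for 8 of the 10 and for 6967 of the 13671 genes tested. Bmp7, Bmpr1a and Smad6 are among these 8, at only −0.03, −0.03 and −0.05 (log2). Their signs turned in 4, 2 and 3 of the 18 alternatives run. The median of the 10 was −0.17 (log2), beside 0.00 over all genes tested. Nothing is read from this count or median either, since the choice of the 10 knew this contrast.

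The start regions of the genes were searched for binding motifs to show which sequence features the transcripts have in common. RefSeq windows (GRCm38.p6) of 250 bases before to 50 after the gene start were given for 7 of the 10, namely Bmp4, Bmp6, Bmpr1a, Id2, Id3, Id4 and Smad6. On both strands 5 motifs were searched, the palindromic SMAD site GTCTAGAC, the GC-rich BMP-SMAD site GGCGCC, the TEAD site GGAATG, the AP-1 site TGANTCA and the GLI site GACCACCCA. None of these motifs contains another. GTCTAGAC stood in the Smad6 window, from base −4 to base 4 around the start, and in 0.213% of 32851 windows of that length. GGCGCC stood in the windows of Id2, Id4 and Bmpr1a and in 11.9% of all windows. GGAATG stood in those of Id3 and Id4 and in 14.7% of all windows. TGANTCA and GACCACCCA were in none of the 7 windows and in 7.81% and 0.253% of all windows.

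The Smad6 start region is shown because it holds the SMAD palindrome of an inhibitor that the pathway itself induces. The Id4 region is shown because, of the ID genes with a window (Id2, Id3 and Id4), it alone had 2 motifs. Id1 had no window. The level of Id4 did not follow Id1 to Id3, and a link of that to its motifs was not tested. Capitals mark motif letters. Id3 has the TEAD letters and Id2 and Bmpr1a the GC-rich letters, shown as short sites. Smad6 is chr9:64022056-64022309, minus strand, and Id4 is chr13:48260866-48261115, plus strand. The Id3 site is chr4:136143607-136143636, plus strand, the Id2 site chr12:25096306-25096335, minus strand, and the Bmpr1a site chr14:34502727-34502756, minus strand (all GRCm38.p6, 5′ to 3′ along the gene).
Smad6: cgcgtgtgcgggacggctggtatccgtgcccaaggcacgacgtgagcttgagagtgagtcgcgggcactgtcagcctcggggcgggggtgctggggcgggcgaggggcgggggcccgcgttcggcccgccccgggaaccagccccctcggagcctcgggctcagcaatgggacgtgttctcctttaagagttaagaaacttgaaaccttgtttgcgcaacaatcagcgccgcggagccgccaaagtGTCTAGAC
Id4: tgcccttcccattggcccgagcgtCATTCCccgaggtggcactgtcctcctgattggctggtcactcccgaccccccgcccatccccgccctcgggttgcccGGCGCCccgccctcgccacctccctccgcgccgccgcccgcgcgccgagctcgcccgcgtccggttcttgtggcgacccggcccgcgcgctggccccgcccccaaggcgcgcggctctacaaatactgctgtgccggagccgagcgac
Id3: tcagcgcttcctCATTCCtcgcatccgagg
Id2: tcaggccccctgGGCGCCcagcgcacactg
Bmpr1a: tgcgcgcgcgccGGCGCCtcttgctcgccc

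A match is a description of letters and not evidence of binding. In the GENCODE M21 annotation, exon covers all 250 bases before the RefSeq start of Id3 and Bmp6, 161 of those of Id2 and 141 of those of Bmpr1a, so these windows hold transcribed sequence. It covers 0 of the 250 bases before the Smad6, Id4 and Bmp4 starts. The Smad6 region shown runs past its start to complete GTCTAGAC. Its last bases therefore lie inside the annotated gene, whose first base is chr9:64022059. The GGAATG letters of Id3 and Id4 read CATTCC on the strand shown.

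The code series, a split that the choice of the 10 did not use, separated Bmp2, Id1, Id2 and Id3. With genotype held in the fit, DM24 minus DM22 was −2.52 ± 0.41 for Bmp2 (limma adjusted p = 0.0339 over 13671 genes), −0.63 ± 0.12 for Id1 (limma adjusted p = 0.0409), −1.50 ± 0.25 for Id2 (limma adjusted p = 0.0344) and −1.34 ± 0.19 for Id3 (limma adjusted p = 0.0258), each log2 with its SE. Both DM24 libraries lay below all 4 DM22 libraries for these genes. The same was true of Bmp4, whose difference of −2.25 ± 0.68 (SE) did not pass (limma adjusted p = 0.1005). Limma called 4.07% of all genes lower and 2.68% higher in DM24, and 4 of the 10 lower and 0 higher. Series did not overlap for 20.2% of all genes on the lower side, and for 5 of the 10.

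Within wild type the DM24 library minus the mean of the DM22 libraries was −3.36 for Bmp2 (log2), and within knockout it was −1.68. For Id1 these differences were −0.61 and −0.65, for Id2 −1.45 and −1.54, and for Id3 −1.07 and −1.61. The direction was thus shared by the genotypes for each of the 4. Leaving out a library ended most of these calls in 4 of the 6 cases. Of the 10 transcripts, limma called 0 without wild-type library 3, 1 without knockout library 1 (Id3), 0 without knockout library 2 and 0 without knockout library 3, while it called 4 without wild-type library 1 and 5 without wild-type library 2.

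Bmp6, Bmp7, Bmpr1a, Id4 and Smad6 did not pass between the series. Their log2 differences were −0.45 ± 0.23, 0.09 ± 0.17, −0.10 ± 0.09, −0.10 ± 0.15 and −0.02 ± 0.21 (SE), with limma adjusted p values of 0.257, 0.763, 0.453, 0.674 and 0.958. For Id4 the series differed by 0.13 within wild type and −0.34 within knockout, and for Smad6 by 0.36 and −0.40. The ID family therefore divided into Id1, Id2 and Id3, which were lower in the DM24 libraries, and Id4, for which no such difference was detected, although the gap between Id4 and the other 3 was not tested.

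**Figure D4:**
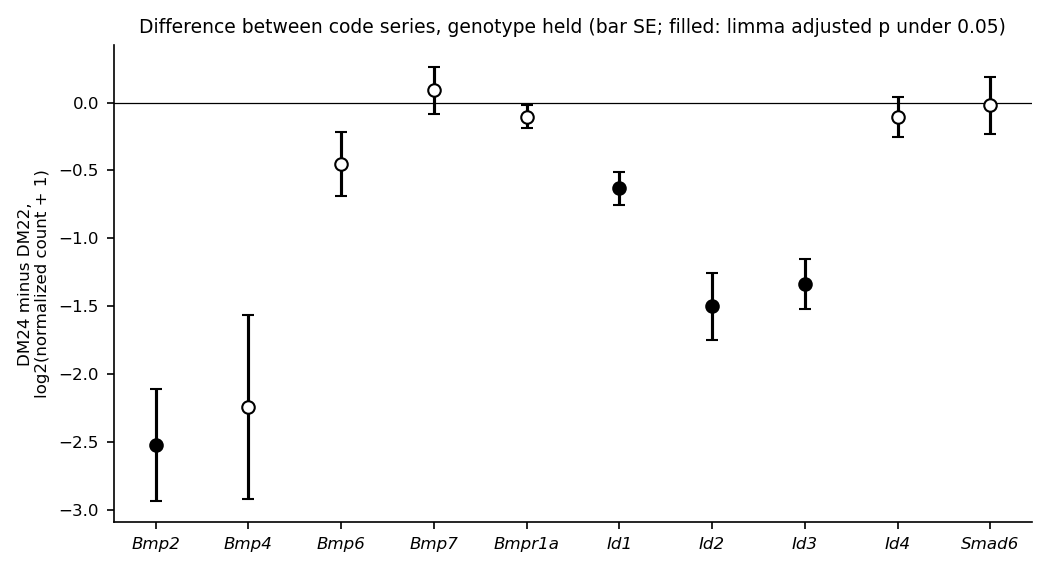
Points give the DM24 minus DM22 difference in log2(normalized count + 1) with genotype held, bars its SE from limma, and filled points an adjusted p under 0.05. Bmp2, Id1, Id2 and Id3 are filled, at −2.52 to −0.63, and Bmp4 lies at −2.25 with the longest bar.

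Markers of other cell states moved with the code series. Suprabasal keratinocyte markers (5 of 6 measured) summed to 33929 and 89262 normalized counts in the DM24 libraries (wild type, then knockout) against 15618 to 24368 in the DM22 libraries. Within that list Krt1 was at 18834 and 54564 against 6938 to 11292. Sbsn (6194 and 4472 against 2285 to 4018) and Ivl (191 and 159 against 63.9 to 112) also lay above the DM22 range. Krt10 (8488 and 30022 against 5247 to 11106) and Lor (222 and 44.3 against 84.7 to 151) overlapped that range or lay on both sides of it. Fibroblast markers (7 of 7) summed to 3406 and 1990 against 5720 to 10402, a sum made mostly of Dcn. The collagen genes of that list went the other way, with Col1a1 at 354 and 154 against 29.7 to 82.4, Col1a2 at 272 and 132 against 41.2 to 108, and Col3a1 at 367 and 163 against 0 to 48.6. The Hedgehog and hair follicle markers (6 of 6) summed to 191735 and 189773 against 223203 to 267913. That sum was made mostly of Krt17 (140032 and 150500 against 165540 to 209876). Ptch1 was also lower (14702 and 11408 against 15070 to 24419), while Gli1, Hhip, Sox9 and Lhx2 overlapped the DM22 range. The sebocyte markers (5 of 5) summed to 19336 and 19914 against 15383 to 18649, a sum made mostly of Scd1 and Fasn. Scd1 (9558 and 9703 against 6464 to 8069), Mgst1 (592 and 792 against 145 to 269) and Elovl3 (237 and 207 against 3.83 to 44.6) lay above the DM22 range. Fasn and Plin5 overlapped it. Adipocyte markers (4 of 4) summed to 3.90 and 10.1 against 0 to 2.68, near the level of single reads. Pdgfra, a defining fibroblast receptor, stood at 14.8 to 34.5 in all 6 libraries. The part of these markers in the series difference was not tested. In bulk RNA fewer cells of a type and less transcript per cell cannot be told apart. Between the genotypes the sums of the suprabasal markers (18558 to 33929 in wild type, 15618 to 89262 in knockout) and of the fibroblast markers (3406 to 10402 and 1990 to 7619) overlapped.

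The wider BMP pathway was read from 6 lists with 57 genes, of which 44 had a mean of at least 10 normalized counts. Between knockout and wild type limma called 0 of the 44, none of them had an unadjusted p under 0.05, and edgeR and DESeq2 also called 0. Limma and edgeR did not call Yap1 either, so their 0 calls do not show that these genes were unchanged. Other ligands were scarce apart from Bmp3, a BMP family member that antagonizes the pathway. Bmp3 had 238, 1078 and 23.4 normalized counts in the wild-type tumours and 725, 565 and 144 in knockout, with overlapping groups and a log2 difference of 1.08 ± 1.40 (SE). Bmp5, Bmp10 and Gdf2 had 0 reads in each library. Among 9 receptors and co-receptors 4 differences lay below 0 and the median was 0.02, and the largest were the type I receptors Bmpr1b (−0.50 ± 0.50, SE) and Acvrl1 (−0.20 ± 0.41, SE). Among the 9 SMADs and SMAD regulators the median was 0.02, with the receptor SMADs Smad9 at −0.52 ± 0.43 (SE) and Smad1 at 0.24 ± 0.13 (SE). Over the 12 tested antagonists and modulators the median was 0.08, and the secreted antagonist Chrd (1.09 ± 0.56, SE) and the follistatin-like gene Fstl1 (0.69 ± 0.82, SE) differed most. The E protein genes Tcf4 and Tcf3 had log2 differences of 0.23 ± 0.14 and 0.04 ± 0.10 (SE). The median over all genes tested was 0.00.

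The list of other BMP-SMAD target genes had each of its 8 tested members below 0 in knockout minus wild type, with a median of −0.34, though none passed. Over all 13671 genes tested, 6967 lay below 0. Bambi, a pseudoreceptor that the pathway induces and that blocks it, had 391, 571 and 209 normalized counts in the wild-type tumours and 380, 211 and 82.2 in knockout. Msx2, a homeobox target, had 473, 623 and 159 in wild type and 413, 276 and 109 in knockout. In both genes the groups overlapped and knockout library 3 was lowest. Their log2 differences were −0.94 ± 0.62 and −0.64 ± 0.67 (SE), with Bambi pairs at −0.04, −1.43 and −1.34 and Msx2 pairs at −0.20, −1.17 and −0.54. The sizes turned on single libraries. Bambi ranged from −0.35 without knockout library 3 to −1.44 without knockout library 1, and Msx2 from −0.09 without knockout library 3 to −1.23 without wild-type library 3. The pairs of the homeobox genes Dlx3 (0.76, −1.45 and 0.20) and Dlx5 (0.63, −1.61 and 0.83) and of the transcription factor gene Gata3 (0.48, −0.47 and −0.16) lay on both sides of 0. Genes of the list that respond to the same signal are not independent of each other.

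Between the code series limma called 6 of the 44 lower in DM24 and 0 higher, against 4.07% and 2.68% of all genes. They are named here after their values were seen. Smad7, an inhibitory SMAD, Bambi and Msx2 come from the target list, with log2 differences of −0.58, −1.47 and −1.70 (limma adjusted p = 0.0306, 0.0495 and 0.0163). The Bambi call was lost with edgeR (edgeR adjusted p = 0.0623), with a pseudocount of 0.5 (limma adjusted p = 0.0503) and when genes under a mean of 50 were dropped (limma adjusted p = 0.0534). The secreted antagonists Nog, Fst and Fstl3 had −1.45, −0.57 and −0.86 (limma adjusted p = 0.0241, 0.0194 and 0.0414). Nog, which encodes noggin, had 534, 356 and 151 normalized counts in the wild-type tumours and 319, 237 and 106 in knockout, so both library 3 values were lowest. Limma called 0 of the 44 without wild-type library 3 or knockout library 3 and 1 without knockout library 1 or 2, but 11 without wild-type library 1 and 13 without wild-type library 2. Bmp3 had the largest series difference of the named genes (−3.26 ± 0.75, SE) and did not pass (limma adjusted p = 0.0614).

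**Figure D5:**
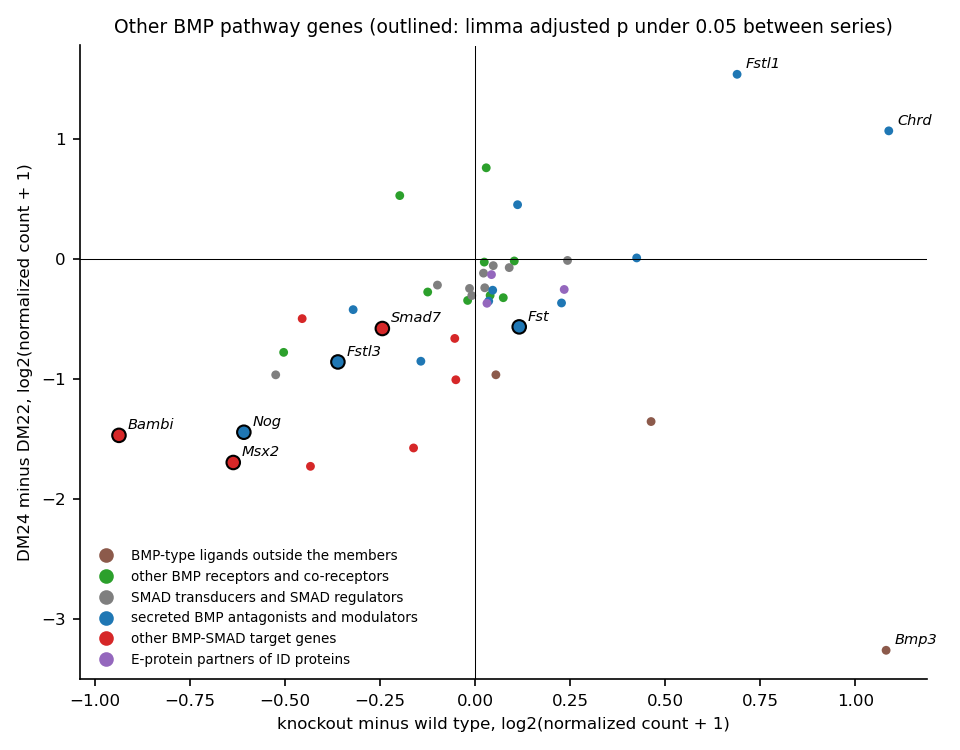
Each point is 1 of the 44 other BMP pathway genes, with knockout minus wild type on the horizontal and DM24 minus DM22 on the vertical axis, both in log2(normalized count + 1), coloured by list. The 6 outlined genes passed limma between the series and all lie below 0 on the vertical axis, from Msx2 at −1.70 to Fst at −0.57. The axes share the same 6 libraries.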

How the data were processed

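Libraries were made from column-purified total RNA with a TruSeq kit that keeps no strand information, per the labels' protocols. The tools named in the submitters' processing notes are STAR 2.5 and DESeq2 1.18.1, the build mm10 (GRCm38). How genes were counted is not given in the sources used here, so reads of overlapping genes cannot be told apart. The growth protocol speaks of 6 or 9 weeks after tamoxifen, and each sample's own label of 6. The authors deposited a signal of normalized counts, and 100% of values in each library were whole multiples of a step (tolerance 0.001 reads) that equals a median-of-ratios size factor, so whole reads were recovered.

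The 13671 genes whose mean reached 10 normalized counts, all 10 transcripts included, were tested with limma 3.58.1 in R 4.3.3 (trend, robust) on log2(normalized count + 1), two-sided, Benjamini-Hochberg at 0.05. This scale understates changes of low genes. Genotype was tested without a covariate and the code series with genotype as covariate. edgeR 4.0.16, DESeq2 1.42.0, other pseudocounts, filters, scalings and sample sets were alternatives. The interaction and DESeq2 with a block or series term were added after results were seen. The fits were run on simulated counts with known changes and a fixed spread between libraries. This checks the procedure and not its power in these libraries. Separate animals are not stated, so p-values measure the spread between libraries. An exact permutation test of 3 against 3 cannot go below 0.1 and was not run.

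The transcripts and lists were chosen with earlier results of these data known. The text names the 10, Yap1, and of each list up to 4 genes past the genotype test, otherwise the 2 with the largest difference and a mean of at least 50. Of 13 cell marker lists, those whose summed level separated the code series are given, with the endothelial list and markers of the labelled cells. No sum separated the genotypes. Deviations from group means correlated by 0.333, 0.327 and 0.694 in same-numbered pairs 1 to 3, over 0.1 in each, the threshold set for pairing by number. The printed genotype fits have no replicate block, and the blocked fit was run as an alternative. Still, wild-type library 2 had a higher correlation with knockout library 1 (0.505), and wild-type library 1 had 0.260 with knockout library 2. Libraries of different code series ran from −0.632 to −0.383. These values cannot tell pairing by number apart from a shared code series. Gene coordinates and exon lengths are from GENCODE M21 (GRCm38) and start windows from RefSeq (GRCm38.p6).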

Additional observations from a re-analysis of the deposited data

How the results depend on the processing

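Bmp6, Id1 and Id4 kept the sign of their genotype difference in the 18 alternatives run, at 1.15 to 1.61, −0.50 to −0.08 and −0.51 to −0.24. Not all of these could change a sign. The limma fits with the replicate block, the series term or another filter return the same estimate by their layout. Bmp4 ranged from −0.90 to 1.23. Limma called 0 genes between the genotypes with the replicate block or a code series term, 2 in the DM22 libraries alone, and 0 to 1 when a library was left out (1 without knockout library 3). Yap1 was the gene called without knockout library 3 and was among those called in the DM22 libraries alone. DESeq2 called 67, and 169 with the replicate block and 303 with the series. The block changed no call of the pathway genes. Between the code series DESeq2 called 2056 genes against 923 with limma, and leaving out a library gave 39 to 1493 genes and 0 to 5 of the 10. Without wild-type library 2 the genotype differences of Tcf3, Fstl1 and Bmpr1b turned to −0.0012, −0.23 and 0.022, without wild-type library 3 that of Bmp3 to −0.38, without knockout library 1 that of Acvrl1 to 0.18 and without knockout library 2 that of Tcf3 to −0.0069. The series difference of Smad6 turned to 0.0040 with edgeR, 0.095 without knockout library 1 and 0.36 without knockout library 3. That of Bmp7 turned to −0.049 and −0.066 without wild-type library 2 and 3, and that of Id4 to 0.13 without knockout library 3. With other libraries left out the genotype difference reached −0.45 for Acvrl1, 1.42 for Fstl1, −0.92 for Bmpr1b and 2.36 for Bmp3, and the series difference −0.34 for Id4, 0.24 for Bmp7 and −0.40 for Smad6. The cause was not tested. With 3 libraries a group, the standard errors near 1 for Bmp2 and Bmp4 limit what could be detected.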
